A study of Mus musculus with 10 samples.

Results

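The polyamine genes examined here were the 10 genes of synthesis and turnover whose rows were found by gene symbol in the count files: Odc1, Srm, Sms, Amd1, Sat1, Azin1, Oaz1, Oaz2, Smox and Paox. All 10 were among the 50559 genes counted, and all 10 were among the 29952 genes that passed the filter on low counts. RNA sequencing covered 10 mouse libraries from FFPE tissue, 4 of MYC/SMARCA4 tumors, 3 of SHH MB and 3 of P7 cerebellum. MYC/SMARCA4 tumors had grown in the cerebella of immunodeficient CD1nu/nu recipients from granule cell precursors (GCPs) of Math1-creERT2::Smarca4fl/fl pups, in which tamoxifen had induced recombination of Smarca4 and a lentiviral construct under the CMV promoter had added MYC. The recipients of tumors 1, 2, 3 and 4 were 112, 96, 89 and 79 days old. P7 cerebella were whole cerebella of Math1-creERT2::Smarca4fl/fl mice aged 7 days that had been given 0.4 mg of tamoxifen at P3, so that these controls also carried the Smarca4 deletion in a part of their Math1-positive cells. SHH MB came from Math1-cre::Smofl/wt mice, for which the labels also give 7 days, and in which Cre acts in Math1-positive cells. The injected GCPs had not been sorted for recombined or transduced cells, and a punch of a tumor holds all cells within its area. In such bulk samples fewer cells of a type and less RNA per cell cannot be told apart. Tumors came from different recipients, whereas nothing says that the samples of the other groups came from separate animals, and p-values then measure only the spread between these samples.

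Polyamines are small, positively charged molecules that bind RNA and DNA and are needed for translation and growth. Ornithine decarboxylase makes putrescine, and spermidine synthase and spermine synthase then add aminopropyl groups that come from decarboxylated S-adenosylmethionine. Breakdown runs by acetylation and oxidation, and antizymes hold ornithine decarboxylase down at the protein level. Odc1 is a textbook target gene of MYC, and GCPs and their tumors are known for rapid growth in the developing cerebellum.

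The libraries held between 5663491 and 9352109 counted reads. Levels are given as log2 CPM, counts per Mio of the TMM-normalized library size with a prior count of 2. The lowest count of a member in any library was 47, of Paox, far over the floor of 3 counts. The transduced gene checked the labels. Myc stood at 7.25, 8.52, 10.63 and 9.99 log2 CPM in tumors 1 to 4, above every P7 cerebellum (3.73 to 3.87) and every SHH MB (5.09 to 5.52). Smarca4 was still counted in the tumors at 7.09 to 7.93 log2 CPM, against 7.79 to 8.14 in P7 cerebella, and counts over the whole gene do not check a deletion of a part of it.

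Tumor 1 stood apart from the other tumors. The summed level of 6 Purkinje cell markers was 11075 CPM in tumor 1, against 338 to 2662 CPM in tumors 2 to 4 and 1347 to 1447 CPM in P7 cerebella. For 6 markers of mature granule neurons, tumors 1 to 4 had 4842, 2106, 366 and 1277 CPM and the P7 cerebella 1092 to 1378 CPM. Its 6 markers of myelinating oligodendrocytes summed to 3835 CPM, against 857 to 1028 CPM in P7 cerebella. Its 8 proliferation genes reached 91.7 CPM, against 696 to 943 CPM in P7 cerebella and 1559 to 1764 CPM in tumors 2 to 4. Its 6 markers of astrocytes and Bergmann glia summed to 378 CPM, against 2066 to 2137 CPM in P7 cerebella. Tumor 3 shared this low sum with 488 CPM, whereas tumors 2 and 4 had 2407 and 1830 CPM. Slc1a2 gave 1557 and 1340 CPM of the sums of tumors 2 and 4. The other markers of this list, Gfap, Aqp4, Aldh1l1, Slc1a3 and Gdf10, were below all cerebella in every tumor. Mitochondrial genes took 6.36% of the counts of tumor 1 and rRNA-like genes 4.47%, against 1.25 to 2.94% and 0.517 to 2.47% in the other libraries. No gene of these lists was at 0 in any group. The part of these other cell types and of the mitochondrial and rRNA-like share in the results was not tested.

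In the comparison with P7 cerebella, which asks how the tumors differ from the tissue that holds their cells of origin, 3 of the 10 polyamine genes rose and none fell at an adjusted p of at most 0.05 in edgeR. Srm rose 6.35-fold, Amd1 2.73-fold and Sat1 2.12-fold, and all 4 tumors lay above all 3 cerebella for each. For Srm this was by a hair, with tumor 1 at 4.72 log2 CPM and the highest cerebellum at 4.70. Of all genes tested, 3.99% rose and 2.27% fell at this threshold, and 10.3% were higher in all tumors than in all cerebella. The median log2 fold change of the 10 genes was 0.35, against -0.05 over all genes tested. At an unadjusted p under 0.05 edgeR counted 4 genes higher and 1 lower, the latter Smox. The share of all genes at this unadjusted threshold was not determined in any comparison. At an adjusted p of at most 0.05 DESeq2 called 4 higher and 0 lower, and limma 2 higher and 0 lower. Over all genes DESeq2 called 10.4% higher and 4.44% lower, and limma 1.2% and 1.23%. In a fit of only the tumors and the cerebella, none of the 3 passed, beside 0.206% of all genes called higher, with log2 fold changes of 2.61 for Srm, 1.33 for Amd1 and 0.96 for Sat1 (adjusted p = 0.0988, 0.0809 and 0.133 in edgeR).

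**Figure D1:**
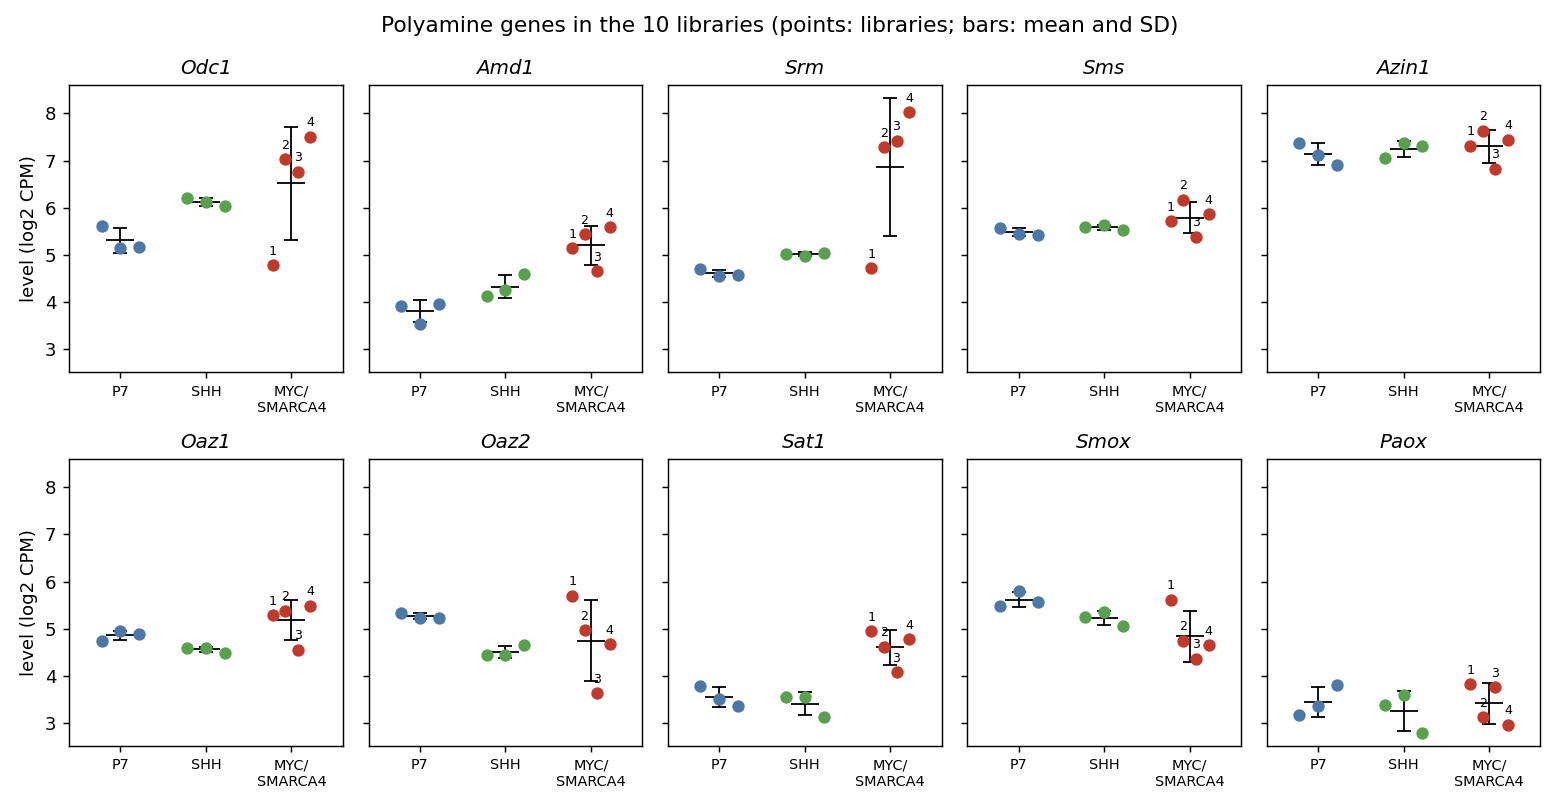
Level of each polyamine gene in log2 CPM (vertical axis) in the libraries of the 3 groups (horizontal axis). Points are libraries, tumors are numbered, and bars give the mean and SD. For Srm and Odc1 tumor 1 sits with or below the P7 cerebella, whereas Amd1 and Sat1 are higher in all 4 tumors than in every other library.

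Among the synthesis genes, Srm, which encodes the spermidine synthase that turns putrescine into spermidine, had the largest fold change of the 10 genes. Srm stood at 4.72, 7.28, 7.42 and 8.03 log2 CPM in tumors 1 to 4, at 4.70, 4.55 and 4.57 in the P7 cerebella and at 5.03, 4.97 and 5.05 in the SHH MB. Tumors 2 to 4 were thus far above both other groups, and tumor 1 was level with the cerebella and below every SHH MB. Against the mean of the cerebella, tumor 1 was higher by 0.11 and tumors 2, 3 and 4 by 2.67, 2.81 and 3.42 on the log2 scale. The fitted log2 fold change was 2.67 (SE 0.55, 95% interval 1.47 to 3.87, adjusted p = 0.0186 in edgeR), and without tumor 1 it was 3.03 (adjusted p = 3.21e-05). The call was lost without tumor 4 (adjusted p = 0.0538) and without any P7 cerebellum, with adjusted p up to 0.132 over 18 alternatives, while the log2 fold change stayed between 2.09 and 3.03.

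Amd1 encodes S-adenosylmethionine decarboxylase, which provides the aminopropyl donor for both synthases. Its levels were 5.15, 5.44, 4.65 and 5.59 log2 CPM in tumors 1 to 4, 3.92, 3.54 and 3.97 in the P7 cerebella and 4.13, 4.27 and 4.59 in the SHH MB. Every tumor, tumor 1 included, lay above every library of the other groups, with tumor 3 closest to them. The log2 fold change against P7 cerebella was 1.45 (SE 0.29, 95% interval 0.82 to 2.08, adjusted p = 0.0166 in edgeR). The files also list 8 copies of this gene, Amd2 and the Amd-ps pseudogenes, which held between 18.0 and 43.4% of the summed counts of a library, so that the split of reads among them is uncertain. Summed with these copies, Amd1 was still higher by 1.23 (adjusted p = 0.0215). Leaving out any P7 cerebellum ended the call, with adjusted p up to 0.130.

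Odc1 encodes ornithine decarboxylase, the rate-limiting enzyme of the pathway. Its levels were 4.78, 7.03, 6.77 and 7.50 log2 CPM in tumors 1 to 4, against 5.62, 5.14 and 5.18 in the P7 cerebella and 6.21, 6.12 and 6.03 in the SHH MB. Tumors 2 to 4 were above all other libraries, and tumor 1 was the lowest of the 10. The log2 fold change against P7 cerebella was 1.49 (SE 0.47, 95% interval 0.48 to 2.5) and did not pass (adjusted p = 0.0767 in edgeR). Without tumor 1 it was 1.82 and passed (adjusted p = 0.000476), and DESeq2 called it with all libraries (log2 fold change 1.54, adjusted p = 0.0166). Of all genes, 11.1% were called higher without tumor 1 and 10.4% by DESeq2, against 3.99% in the main fit. Adjusted p ranged from 0.000476 to 0.316 over the 18 alternatives.

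Sms encodes spermine synthase, the last enzyme of synthesis, and its groups overlapped. Its levels were 5.71, 6.18, 5.39 and 5.87 log2 CPM in the tumors, 5.58, 5.44 and 5.42 in the cerebella and 5.60, 5.63 and 5.53 in the SHH MB. The log2 fold change against P7 cerebella was 0.33 (95% interval -0.19 to 0.86, adjusted p = 0.383 in edgeR). Within libraries, Srm exceeded Sms by 1.10, 2.04 and 2.16 log2 CPM in tumors 2 to 4, whereas Srm was the lower of both in all other libraries, by 0.99 in tumor 1, 0.85 to 0.89 in cerebella and 0.48 to 0.65 in SHH MB, on a scale not corrected for gene length.

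The windows before the start of Amd1 and Odc1, whose levels were high in tumors 2 to 4 but differed in tumor 1, and of Sat1, the other gene that rose with Srm and Amd1, are shown to compare their base composition. RefSeq sequences on GRCm38.p6 matched 8 of the 10 genes, without Srm and Azin1. Each line holds the 250 bases before the start on the strand of the gene, 5′ to 3′. Capitals mark TATAA or its reverse complement TTATA, and CACGTG, the palindromic E-box bound by MYC and related factors.

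Amd1, chr10:40302189-40302438, minus strand: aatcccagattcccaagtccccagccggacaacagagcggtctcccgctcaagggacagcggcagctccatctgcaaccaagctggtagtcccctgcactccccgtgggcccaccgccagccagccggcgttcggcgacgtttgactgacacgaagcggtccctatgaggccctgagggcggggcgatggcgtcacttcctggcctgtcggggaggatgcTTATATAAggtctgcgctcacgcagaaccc
Odc1, chr12:17544623-17544872, plus strand: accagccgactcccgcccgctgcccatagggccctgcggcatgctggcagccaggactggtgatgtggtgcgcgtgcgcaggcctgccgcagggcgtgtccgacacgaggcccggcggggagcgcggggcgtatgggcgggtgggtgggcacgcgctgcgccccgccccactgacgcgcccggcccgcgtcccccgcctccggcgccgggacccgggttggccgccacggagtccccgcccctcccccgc
Sat1, chrX:155216450-155216699, minus strand: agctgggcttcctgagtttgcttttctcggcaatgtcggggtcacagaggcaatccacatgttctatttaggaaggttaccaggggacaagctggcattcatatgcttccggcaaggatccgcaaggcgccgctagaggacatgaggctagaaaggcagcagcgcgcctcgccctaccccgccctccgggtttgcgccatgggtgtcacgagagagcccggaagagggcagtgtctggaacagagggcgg

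These windows differ in composition, with 63.0% G and C for Amd1, 78% for Odc1 and 60.3% for Sat1 over the 300 bases that also take in 50 bases from the start on. TATAA, searched on both strands, lay within the window of Amd1 close to the start, and it occurs in 24.9% of the 32851 windows of this length in the table. CACGTG, which is held by 7.15% of these windows and overlaps no TATAA, was found in none of the 3 printed windows. Among the 8 genes it occurred only for Sms, in the window upstream of its farther start (chrX:157492288-157492537), as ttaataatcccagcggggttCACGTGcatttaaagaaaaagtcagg, with its first base 196 bases before the start. A match is a description of letters, and no match says nothing about regions outside the window.

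Control of ornithine decarboxylase runs through the antizymes Oaz1 and Oaz2, which bind the enzyme and direct it to the proteasome, and through Azin1, the antizyme inhibitor that releases it. None of these 3 genes passed the test against P7 cerebella, with 0 at an unadjusted p under 0.05 in edgeR and 0 calls by DESeq2 and limma. Azin1 was the highest of the 10 genes per length in P7 cerebella and SHH MB. Its levels were 7.31, 7.63, 6.82 and 7.44 log2 CPM in tumors, 7.37, 7.13 and 6.90 in cerebella and 7.06, 7.36 and 7.32 in SHH MB (log2 fold change against P7 0.18, 95% interval -0.39 to 0.76). The groups fully overlapped. Oaz1 stood at 5.28, 5.38, 4.55 and 5.49 log2 CPM in tumors, at 4.74, 4.94 and 4.89 in cerebella and at 4.59, 4.6 and 4.50 in SHH MB. All tumors but tumor 3 were above the cerebella, and the log2 fold change was 0.36 (95% interval -0.20 to 0.93). The copy Oaz1-ps took between 15.9 and 26.5% of the counts of both rows, and the sum gave 0.38.

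Oaz2 varied more among the tumors than among the other libraries. Its levels were 5.70, 4.97, 3.64 and 4.67 log2 CPM in tumors 1 to 4, 5.33, 5.23 and 5.22 in cerebella and 4.44, 4.44 and 4.66 in SHH MB. Tumor 1 was the highest and tumor 3 the lowest of the 10 libraries, the same places these tumors held for the summed Purkinje cell markers (11075 and 338 CPM). Tumor 2 had 2662 CPM of these markers, above the cerebella (1347 to 1447 CPM), but its Oaz2 was below all of them. Itpr1 alone gave 2056 CPM of this sum in tumor 2. Of the other markers in tumor 2, Ppp1r17 was above the cerebella and Calb1 within their range, whereas Pcp2, Car8 and Pcp4 were below all of them. The part of cell types was not tested. The log2 fold change against P7 cerebella was -0.35 (95% interval -1.15 to 0.45, adjusted p = 0.546 in edgeR), and without tumor 1 it was -0.73 (adjusted p = 0.109). Within libraries, Odc1 exceeded Oaz1 by 1.65, 2.21 and 2.01 log2 CPM in tumors 2 to 4, by 1.52 to 1.62 in SHH MB and by 0.20 to 0.88 in cerebella. In tumor 1, Odc1 was lower than Oaz1 by 0.50. These differences were not corrected for gene length. Per kilobase of merged exons, mean Oaz1 (11.4 CPM per kb) was above mean Odc1 (7.05) in P7 cerebella.

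**Figure D2:**
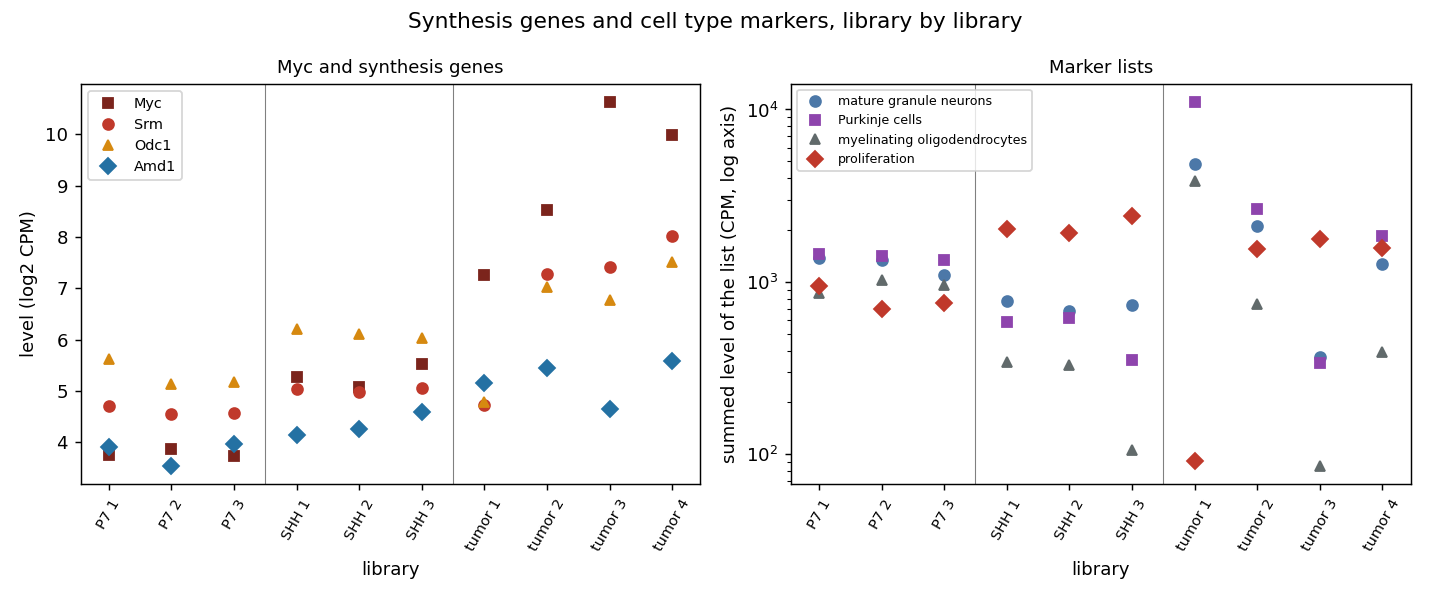
Left, level in log2 CPM of Myc, Srm, Odc1 and Amd1 in each of the 10 libraries. Right, summed level in CPM of 4 marker lists on a log axis in the same libraries. Tumor 1 has the lowest Myc of the tumors (7.25 log2 CPM), Srm and Odc1 of 4.72 and 4.78 log2 CPM, the highest neuronal and oligodendrocyte sums and the lowest proliferation sum (91.7 CPM).

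Of the genes of breakdown, Sat1 rose. Sat1 encodes spermidine/spermine N1-acetyltransferase, which marks polyamines for oxidation or export. Its levels were 4.94, 4.62, 4.08 and 4.78 log2 CPM in tumors 1 to 4, 3.79, 3.51 and 3.36 in cerebella and 3.56, 3.55 and 3.14 in SHH MB. All tumors lay above all other libraries, tumor 1 highest. The log2 fold change against P7 cerebella was 1.09 (SE 0.29, 95% interval 0.46 to 1.71, adjusted p = 0.0441 in edgeR). The call was lost with limma, without the filter on low counts, without tumor 2 or 4 and without any P7 cerebellum or SHH MB, with adjusted p up to 0.210 and a log2 fold change between 0.90 and 1.23. The summed level of 8 markers of microglia and macrophages, none of them at 0, was 182, 108, 51.5 and 136 CPM in tumors 1 to 4. Cerebella had 78.9 to 82.3 CPM and SHH MB 49.1 to 82.5 CPM. This sum ordered the tumors as Sat1 did, but tumor 3 was below the cerebella in the sum and above them for Sat1. P2ry12, C1qa and C1qc kept this order and Csf1r nearly so. Aif1 was lowest in tumor 1, and Cx3cr1, Tmem119 and C1qb were highest in tumor 4. The part of these cells in the result was not tested.

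Smox encodes spermine oxidase, which returns spermine to spermidine. Its levels were 5.62, 4.75, 4.36 and 4.65 log2 CPM in tumors 1 to 4, 5.49, 5.80 and 5.56 in cerebella and 5.26, 5.35 and 5.07 in SHH MB. Tumors 2 to 4 lay below all 6 other libraries, and tumor 1 lay among the cerebella. The log2 fold change against P7 cerebella was -0.70 (SE 0.30, 95% interval -1.35 to -0.06) and did not pass (adjusted p = 0.164 in edgeR). It passed without tumor 1 (-1.02, adjusted p = 0.00516) and without tumor 3 (-0.75, adjusted p = 0.0338), and adjusted p reached 0.420 over the alternatives. Of all genes, 5% were called lower without tumor 1 and 22.8% without tumor 3, against 2.27% with all libraries. As for Oaz2, tumor 1 with its high neuronal marker sums was the highest tumor. Tumor 2 also had more of the mature granule neuron markers (2106 CPM) than the cerebella (1092 to 1378 CPM), but its Smox was below theirs. The part of cell types was not tested.

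Paox encodes the oxidase of acetylated polyamines and had the lowest level per length of the 10 genes in every group. Its levels were 3.82, 3.13, 3.76 and 2.97 log2 CPM in tumors, 3.18, 3.37 and 3.80 in cerebella and 3.38, 3.61 and 2.8 in SHH MB. The groups overlapped, and the log2 fold change was -0.01 (95% interval -0.74 to 0.72, adjusted p = 0.989 in edgeR). Paox overlaps Echs1 on the opposite strand, and without a stated strand setting of the counting, reads of both cannot be told apart.

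**Figure D3:**
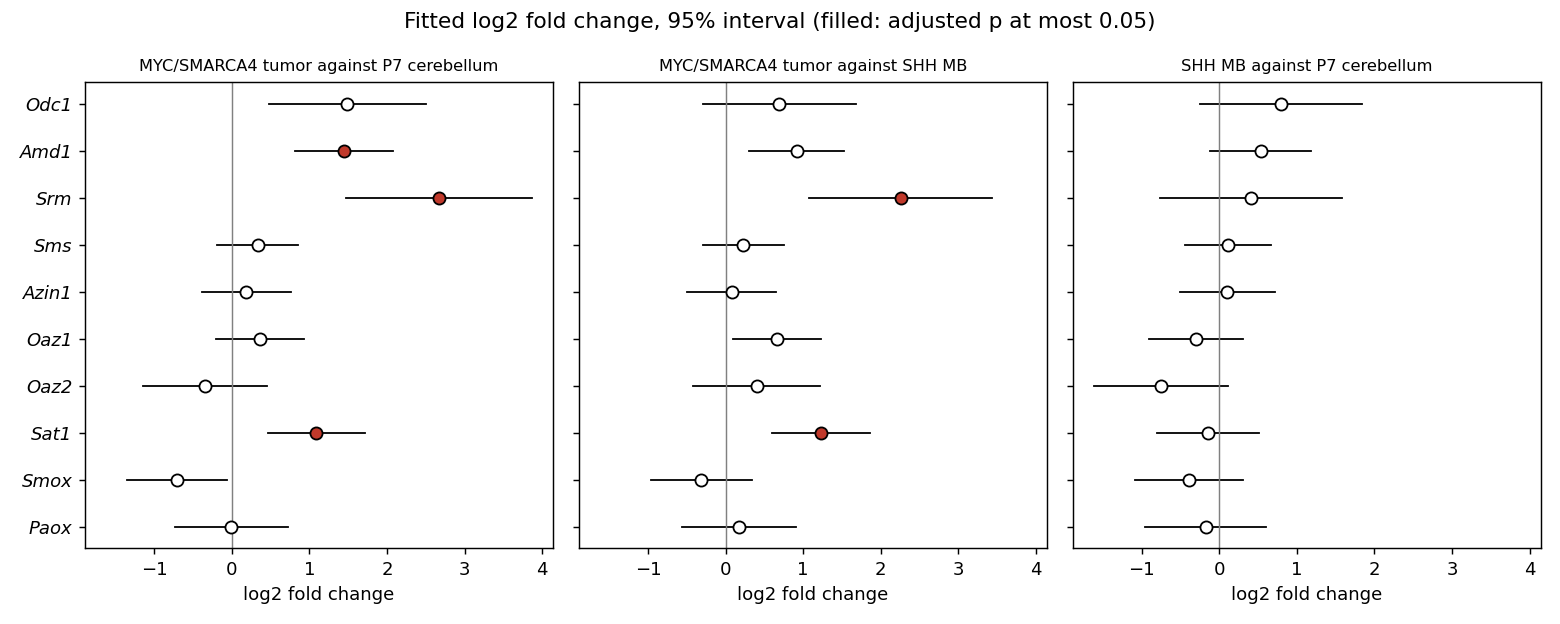
Fitted log2 fold change (horizontal axis) of the 10 genes (vertical axis) with 95% intervals in the 3 comparisons. Filled points passed an adjusted p of at most 0.05. Srm, Amd1 and Sat1 are filled against P7 cerebellum, Srm and Sat1 against SHH MB, and no gene in the comparison of SHH MB with P7 cerebellum.

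Against SHH MB, the tumor model used for comparison, 2 of the 10 genes rose and none fell at an adjusted p of at most 0.05. Over all genes tested 2.43% rose and 2.26% fell, and 7.83% were higher in all tumors than in all SHH MB, as were Amd1 and Sat1. Sat1 was higher by 1.23 on the log2 scale (SE 0.29, 95% interval 0.60 to 1.86, adjusted p = 0.0316 in edgeR) and Srm by 2.26 (SE 0.54, 95% interval 1.08 to 3.43, adjusted p = 0.0340). For Srm the groups overlapped through tumor 1, and without tumor 1 the log2 fold change was 2.59 (adjusted p = 4.76e-05). For Amd1 the log2 fold change was 0.91 (SE 0.28, 95% interval 0.30 to 1.53, adjusted p = 0.0903) although the groups did not overlap. At an unadjusted p under 0.05 edgeR counted 4 genes higher, Sat1, Oaz1, Amd1 and Srm, and 0 lower, without a share of all genes at that threshold. DESeq2 called 3 higher and 0 lower, beside 7.87% and 4.09% of all genes, and limma called 0 in either direction, beside 0.692% and 1.21%.

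The other genes did not pass against SHH MB. Odc1 had a log2 fold change of 0.69 (95% interval -0.29 to 1.68, adjusted p = 0.432), which without tumor 1 was 1.00 and passed (adjusted p = 0.0185). The fit without tumor 1 called 5.91% of all genes higher, against 2.43% with all libraries. Oaz1 had 0.66 (95% interval 0.09 to 1.23, adjusted p = 0.183), with tumor 3 within the SHH MB and the other tumors above them. For Oaz2, Smox, Sms, Azin1 and Paox the values were 0.40, -0.31, 0.23, 0.08 and 0.17, with intervals that took in 0. Without tumor 1, Oaz2 had -0.00192 and Smox -0.65 (adjusted p = 0.998 and 0.0670), and neither passed. The calls of Srm and Sat1 against SHH MB were lost with limma, in a fit of only these 2 groups, without tumor 2, without tumor 4 and without any P7 cerebellum or SHH MB, with adjusted p up to 0.169 and 0.220. Both comparisons share the 4 tumors, and the difference between them was not tested.

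Between SHH MB and P7 cerebella, none of the 10 genes passed, with 0 at an unadjusted p under 0.05 in edgeR and 0 calls by DESeq2 and limma. At an adjusted p of at most 0.05, 0.177% of all genes were higher and 0.0467% lower in SHH MB. Odc1 (log2 fold change 0.80, 95% interval -0.25 to 1.84), Amd1 (0.53, -0.12 to 1.18) and Srm (0.41, -0.77 to 1.59) were higher in all 3 SHH MB than in all 3 cerebella, and 17.8% of all genes were. Oaz2 (-0.75, 95% interval -1.62 to 0.11), Smox (-0.39, -1.08 to 0.30) and Oaz1 (-0.30, -0.90 to 0.30) were lower in all SHH MB, as were 19% of all genes. In a fit of these 2 groups alone, in which the tumors have no part, Odc1 (0.81, adjusted p = 5.66e-05), Amd1 (0.56, adjusted p = 0.0329) and Srm (0.43, adjusted p = 0.0365) rose and Oaz2 fell (-0.73, adjusted p = 0.000486). That fit called 23.7% of all genes, 13.4% higher and 10.3% lower. Proliferation genes summed to 1917 to 2395 CPM in SHH MB and to 696 to 943 CPM in cerebella, and their part in these differences was not tested.

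Levels of different genes were compared per kilobase of merged exons. These took in every annotated exon of a gene, used or not, and the annotation used for counting is not given. The order between genes thus depends on the annotation. In P7 cerebella Azin1 (14.8 ± 2.42 CPM per kb, SD, n = 3), Oaz2 (12.6 ± 0.553) and Oaz1 (11.4 ± 0.817) came first, followed by Sms (7.09 ± 0.422), Odc1 (7.05 ± 1.38), Srm (5.55 ± 0.322) and Smox (5.46 ± 0.632). Sat1 (4.16 ± 0.661), Amd1 (2.57 ± 0.407) and Paox (1.35 ± 0.318) came last. The libraries of neighbours in this order overlapped for Azin1 and Oaz2, for Sms and Odc1 and for Srm and Smox, and did not for the other neighbours. In SHH MB Azin1 (15.9 ± 1.75) was followed, without overlap, by Odc1 (12.2 ± 0.755). In MYC/SMARCA4 tumors Srm came first with 35.2 ± 22.2 CPM per kb (SD, n = 4, range 5.98 to 59.9), ahead of Odc1 with 19.8 ± 11.3 (4.82 to 32.0), Azin1 with 16.8 ± 3.73 and Oaz1 with 14.6 ± 3.75, and these ranges overlapped.

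Acetylation was also read against synthesis within libraries. Odc1 exceeded Sat1 by 2.41, 2.69 and 2.72 log2 CPM in tumors 2 to 4, by 2.57 to 2.90 in SHH MB and by 1.63 to 1.83 in cerebella, and was lower by 0.16 in tumor 1. Smox exceeded Paox by 0.60 log2 CPM in tumor 3, by 1.62 to 1.79 in the other tumors, by 1.75 to 2.27 in SHH MB and by 1.76 to 2.43 in cerebella. Tumor 1 was thus the sole library with less Odc1 than Sat1, and tumor 3 had the smallest excess of Smox. Both differences were on a scale not corrected for gene length.

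Genes around the pathway were read from a list of 32, of which Agmat was not tested at its low counts. Of the 31 tested, 9 rose against P7 cerebella and 0 fell in edgeR, beside 3.99% and 2.27% of all genes. All 9 were higher in every tumor than in every cerebellum, as were 10.3% of all genes. The 9 had been picked by the test on the same libraries, so this adds no support. The median log2 fold change of the 31 genes was 0.68, and 23 of 31 were fitted higher, as were 48.1% of all genes. At an unadjusted p under 0.05 there were 14 higher and 1 lower, and the share of all genes at this threshold was not determined. At an adjusted p of at most 0.05 DESeq2 called 13 higher and 0 lower, beside 10.4% and 4.44% of all genes. Limma called 0 and 0, beside 1.2% and 1.23%. The count fell to 0 without tumor 2 and without any P7 cerebellum or SHH MB, and to 1 without tumor 4. Of all genes, 1.77% were called higher without tumor 2 and 1.8% without tumor 4. Without 1 cerebellum this share was 0.1 to 0.227%, and without 1 SHH MB it was 1.34 to 1.46%.

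Hypusination uses spermidine to modify the translation factor eIF5A, and 3 of its 4 genes rose, beside 3.99% of all genes. Eif5a, which encodes the factor, stood at 7.14, 8.06, 7.63 and 8.46 log2 CPM in tumors 1 to 4 and at 6.52 to 6.88 in cerebella (log2 fold change 1.21, SE 0.32, adjusted p = 0.0425 in edgeR). Its paralog Eif5a2 had 6.54, 6.21, 5.31 and 6.29 log2 CPM against 4.61 to 5.21 (1.30, SE 0.31, adjusted p = 0.0313). Tumor 1 was the lowest tumor for Eif5a but the highest for Eif5a2. Dohh, the hydroxylase of the second step, was higher by 1.18 (SE 0.31, adjusted p = 0.0446), and Dhps, the synthase of the step before it, which consumes spermidine, had 0.24 (95% interval -0.33 to 0.81, adjusted p = 0.566).

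In the methionine cycle and the salvage of methylthioadenosine, the by-product of both aminopropyl transfers, 5 of 9 genes rose and all 9 were fitted higher. Without tumor 1, Apip changed from 0.40 to -0.01, and the others stayed higher. In the fit of all libraries, 3.99% of all genes rose and 48.1% were fitted higher. Mat2a, the catalytic subunit that makes S-adenosylmethionine, was higher by 1.31 (SE 0.33, adjusted p = 0.0380 in edgeR), and its regulatory subunit Mat2b by 1.57 (SE 0.39, adjusted p = 0.0351). Mat2b stood at 7.24, 6.15, 5.36 and 6.06 log2 CPM in tumors 1 to 4 and at 4.52 to 5.04 in cerebella, so that tumor 1 was again the highest. Without tumor 1 the log2 fold changes were 1.11 for Mat2b (adjusted p = 0.00952) and 1.16 for Eif5a2 (adjusted p = 0.0140). The salvage enzymes Enoph1 and Adi1 were higher by 1.12 (SE 0.27, adjusted p = 0.0322) and 1.13 (SE 0.25, adjusted p = 0.0244), and Mtr, the methionine synthase, by 1.03 (SE 0.25, adjusted p = 0.0312). Ahcy, which hydrolyses S-adenosylhomocysteine, had 1.38 (95% interval 0.46 to 2.30, adjusted p = 0.0728), with tumor 1 at 2.39 log2 CPM within the cerebella (2.28 to 2.81) and the other tumors at 3.75 to 4.49.

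Of 8 genes of ornithine and arginine supply tested against P7 cerebella, 0 passed in edgeR, with 1 higher and 1 lower at an unadjusted p under 0.05. The first was Slc7a1, the cationic amino acid transporter (log2 fold change 1.00, 95% interval 0.29 to 1.72, adjusted p = 0.0870), which DESeq2 called and limma did not. The other was Otc, ornithine transcarbamylase (-1.81, 95% interval -3.39 to -0.27, adjusted p = 0.140). Of 10 genes of transport and other catabolism, Atp13a3, a polyamine transporter of the P5B ATPases, rose by 1.06 (SE 0.29, adjusted p = 0.0492 in edgeR). Against SHH MB 4 of the 31 genes rose and 0 fell in edgeR, beside 2.43% and 2.26% of all genes. They were Eif5a at 1.28 (adjusted p = 0.0380), Mat2b at 1.69 (adjusted p = 0.0286), Enoph1 at 1.29 (adjusted p = 0.0196) and Adi1 at 1.04 (adjusted p = 0.0351). Without 1 library the count of genes that rose was between 0 and 10, beside 0.166 to 9.57% of all genes. At an unadjusted p under 0.05 there were 11 higher and 0 lower, and the share of all genes at this threshold was not determined. At an adjusted p of at most 0.05 DESeq2 called 4 higher and limma 1, beside 7.87% and 0.692% of all genes. Between SHH MB and cerebella 0 passed in edgeR, DESeq2 and limma, and 2 were higher and 1 lower at an unadjusted p under 0.05.

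**Figure D4:**
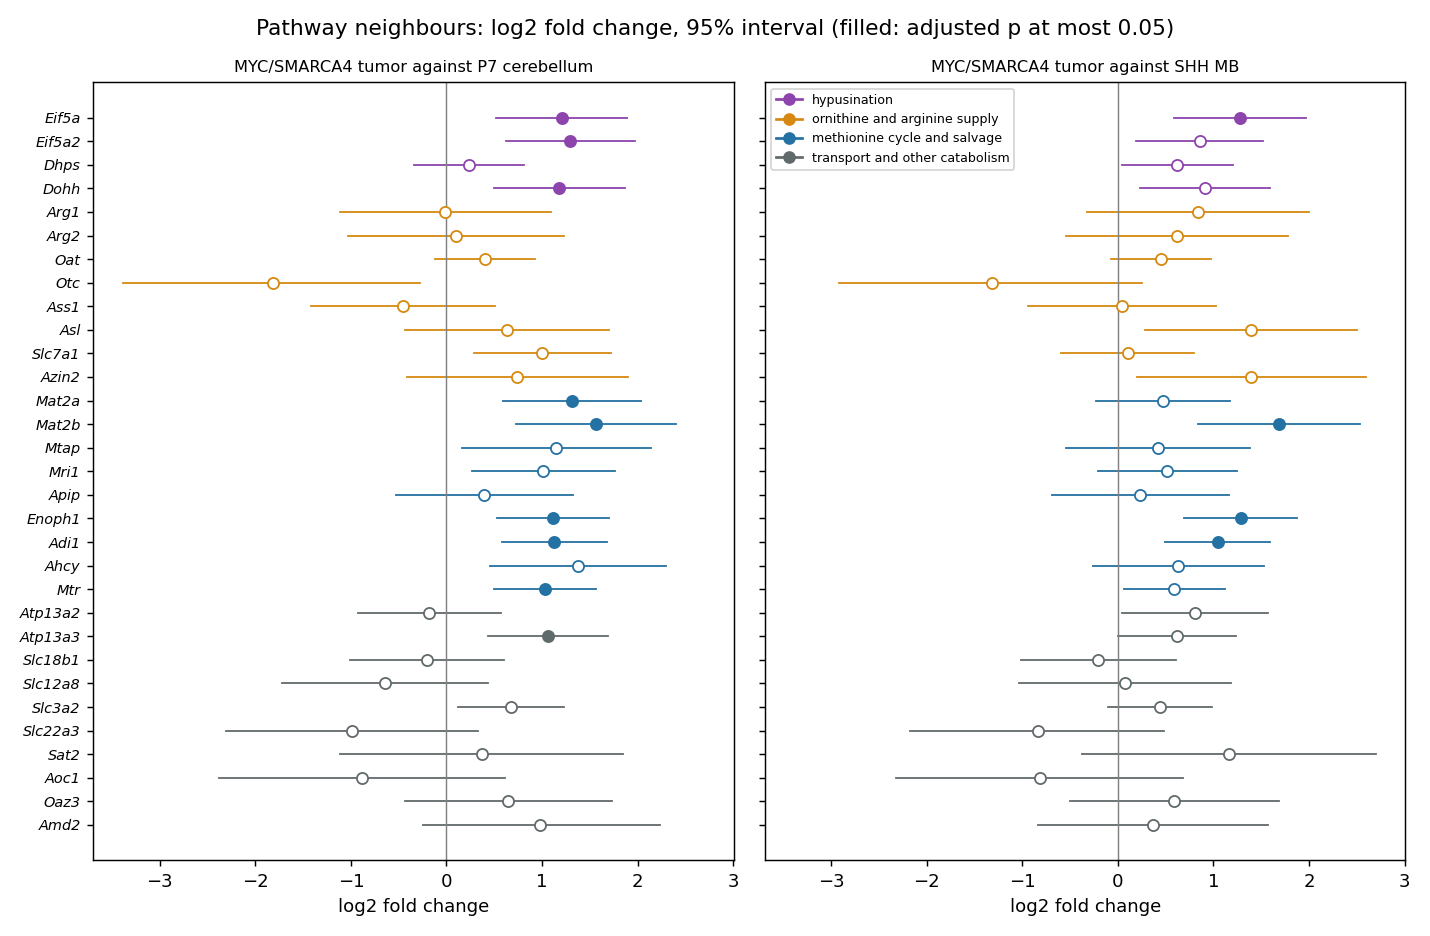
Fitted log2 fold change (horizontal axis) with 95% intervals of the 31 tested genes around the pathway (vertical axis), coloured by role, for tumors against P7 cerebellum (left) and against SHH MB (right). Filled points passed an adjusted p of at most 0.05, which were 9 on the left and 4 on the right.

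The genes whose levels were most like that of Odc1 over the 10 libraries were G3bp1, Rcc2, Shmt2 and Heatr1, together with LOC118568244. Likeness was the root mean square difference of log2 CPM centred on the gene's mean, and it was 0.125 for G3bp1 and 0.178 to 0.192 for the others, among 6727 genes with a mean of at least 5 log2 CPM. For Srm the nearest genes were farther, at 0.341 for Nrp2, 0.350 for Hspd1, 0.364 for Pold2, 0.387 for Npm1 and 0.392 for Gm4274. These values describe 10 libraries that share 3 groups, and they carry no test.

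On GRCm39 the 10 genes lie apart on 8 chromosomes. Odc1 lies at chr12:17594383-17601507, Srm at chr4:148675940-148681792, Amd1 at chr10:40162797-40178185 and Sat1 at chrX:153996128-153999452. Amd1 shares chromosome 10 with Oaz1 (chr10:80662516-80665124), and Sat1 shares the X chromosome with Sms (chrX:156226848-156275317). Genes on the opposite strand overlap Odc1, Azin1, Oaz1, Smox and Paox, and none was annotated opposite Srm, Sms, Amd1, Oaz2 and Sat1.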

How the data were processed

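RNA had been extracted from FFPE tissue, depleted of ribosomal RNA and made into libraries with the CORALL kit. Per the submitters' processing notes, FastQC 0.73, Trimmomatic 0.38.1, STAR 2.7.8a, featureCounts 2.0.1 and DESeq2 2.11.40.7 were used with GRCm39. The authors deposited counts per gene and library, without normalization, and a table of log2 values from a variance-stabilizing transformation. The strand setting of the counting is not given in the sources used here.

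Counts of all 10 libraries were fitted with the quasi-likelihood test of edgeR 4.0.16 in R 4.3.3, with TMM, filterByExpr and a mean per group, and p-values were adjusted by the Benjamini-Hochberg method over 29952 genes. All 10 members and the genes of the pathway list that passed were named, with up to 3 that did not. Otc and Apip fall outside this rule and were named after their values were seen. Members and lists were chosen with earlier results of these data known. The other settings, 17 in all, included DESeq2 1.42.0, limma 3.58.1 on the deposited log2 values, RLE factors, no filter, 2 groups only, library sizes that leave out mitochondrial and rRNA-like genes, a replicate block, and each library left out. The sum of members with their named copies was added after seeing the data. The 95% intervals come from the fit and take in the spread between libraries. The floor of 3 counts, which covers counting error only, was 0.307 to 0.744 CPM at the depths of these libraries. Same-numbered samples came from different animals, and correlations of their deviations were -0.27 to 0.16.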

Additional observations from a re-analysis of the deposited data

How the results depend on the processing

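Of 540 log2 fold changes of the 10 genes under alternatives, 460 kept direction and side of the threshold, 46 lost and 13 gained a call and 21 changed sign. In the comparison of tumors with P7 cerebella, the 3 genes called higher became 0 in a fit of only these 2 groups and 0 with the replicate number as a block, and 0 to 4 without 1 library; the 0 called lower became up to 1. Calls over all genes fell from 1873 to 229 with only 2 groups and 370 with the block. Without 1 library, 0.1 to 11.8% of all genes were called higher and 0.369 to 22.8% lower. The 9 pathway neighbours called higher became 0 with limma on the deposited values, 4 without the filter on low counts, 0 with only 2 groups, 0 with the replicate block and 0 to 13 without 1 library, and the 0 called lower became up to 3. Against SHH MB, the 2 genes called higher became 0 with limma, 1 without the filter, 0 with only 2 groups, 0 with the replicate block and 0 to 4 without 1 library. The 4 neighbours called higher became 1 with limma, 2 without the filter, 0 with only 2 groups, 0 with the replicate block and 0 to 10 without 1 library, and those called lower 0 to 1. In this comparison, 0.166 to 9.57% of all genes were called higher and 0.789 to 13.9% lower without 1 library. Between SHH MB and P7 cerebella, only the fit of these 2 groups made calls, 3 genes higher and 1 lower, and 7 neighbours higher and 3 lower, where 6883 of 29018 genes (23.7%) were called. The cause was not tested.

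Changes of sign were small. For Paox against P7 cerebella the main -0.01 became 0.0118 with RLE, 0.0331 with DESeq2, 0.0180 with limma, 0.0305 without the filter and 0.13 with the replicate block, and was -0.32 to 0.12 without 1 library. Without 1 library, Paox ranged from -0.13 to 0.36 against SHH MB and from -0.357 to 0.0580 in SHH MB against cerebella, Azin1 from -0.0326 to 0.143 and Oaz2 from -0.00192 to 0.49 against SHH MB, and Sat1 from -0.227 to 0.0172 in SHH MB against cerebella. The replicate numbers do not pair the samples. With the block, Srm had 2.09 and Odc1 1.04 against P7 cerebella, and 1.70 and 0.27 against SHH MB. A prior count of 0.5 left all levels within 1 SD.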
